A study of Homo sapiens with 6 samples.

Results

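INHBE, ADM2, GDF15, STC2, VEGFA and FGF21 encode secreted hormones and growth factors that are known as targets of cellular stress signalling. These 6 genes, of 20345 protein-coding genes in the deposited table, were followed in HEK 293FT cells, an established line of human embryonic kidney origin with the SV40 large T antigen. They were found by gene symbol and were chosen with their difference between the groups already known, so their values in that comparison are a description without a test. One group of 3 libraries came from cells titled HEK 293FTGFP and marked Vec, a term the labels do not spell out, and the other 3 came from cells titled HEK 293FTGFP-CTRB1. They are called GFP cells, after green fluorescent protein, and CTRB1 cells here. GFP stands in both titles, and CTRB1 is the gene of chymotrypsinogen B1, from which the pancreas makes a digestive protease. How GFP and CTRB1 were introduced, whether a population is 1 clone, and whether libraries came from separate cultures are not given in the sources used here, so each p-value rests on the spread among these 6 libraries alone, which may be technical.

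The integrated stress response starts when a kinase phosphorylates the translation factor eIF2alpha, which lowers protein synthesis overall while the transcription factor ATF4 is translated more. ATF4 and its partner CHOP, the product of DDIT3, then activate genes for amino acid supply together with several genes for secreted proteins, through which stressed cells signal to other tissues. GDF15 is known for reducing appetite through a receptor in the brainstem, and FGF21 for its effects on metabolism as a hormone of the liver. VEGFA drives the growth of blood vessels and is also a classical target of the hypoxia-inducible factors (HIF).

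The CTRB1 gene followed the labels, with 1, 0 and 5 counts in GFP cells against 22749, 22161 and 19345 in CTRB1 cells. Total counts were 52571457 to 159616285 per GFP library and 27514767 to 32522018 per CTRB1 library, so every GFP library was deeper. All 4 markers of the HEK293 line used for a check (NEFM, PAX2, LIN28B and EYA1) were at 1 TPM (the authors' level normalised for gene length and depth) or more in at least 3 libraries, with summed levels of 74.3 to 76.0 TPM in GFP cells and 73.6 to 79.1 TPM in CTRB1 cells. Of 5 fibroblast markers, COL1A1 and COL3A1 reached that level, and none of the blood, endothelial, keratinocyte or pancreatic acinar markers did. In RNA from whole cultures, a change in the number of cells that express a gene and a change in RNA per cell cannot be told apart.

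The members fell into 3 patterns. INHBE and ADM2 were weakly expressed in GFP cells and several-fold higher in CTRB1 cells. STC2 and VEGFA were moderately expressed in both groups and less than 1.9-fold higher in CTRB1 cells. GDF15 and FGF21 stayed below the filter on low values, FGF21 with at most 13 counts in a library, and the groups overlapped for GDF15. A gene entered the test across all genes when its FPKM, the authors' length-normalised value, was at least 1 in at least 3 libraries, which 4 of the 6 members did. INHBE and ADM2 reached that level in the CTRB1 libraries only, so the filter admitted them through the group where they were high. With edgeR's quasi-likelihood test and an adjusted p threshold of 0.05, all 4 were called, as were 37.4% of the 11961 genes tested, with 18.6% called higher in CTRB1 cells. All 4 also had groups that did not overlap, as did 50.0% of the genes tested, with the CTRB1 libraries higher for 25.0%. Nothing is read from those counts, since the members were chosen on this contrast. A log2 change of at least 1 among genes called higher, the range of INHBE and ADM2, was reached by 29 genes, 0.242% of those tested, and a change of at least 0.5 by 195 genes, 1.63%. For the same reason nothing is read from these shares.

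**Figure D1:**
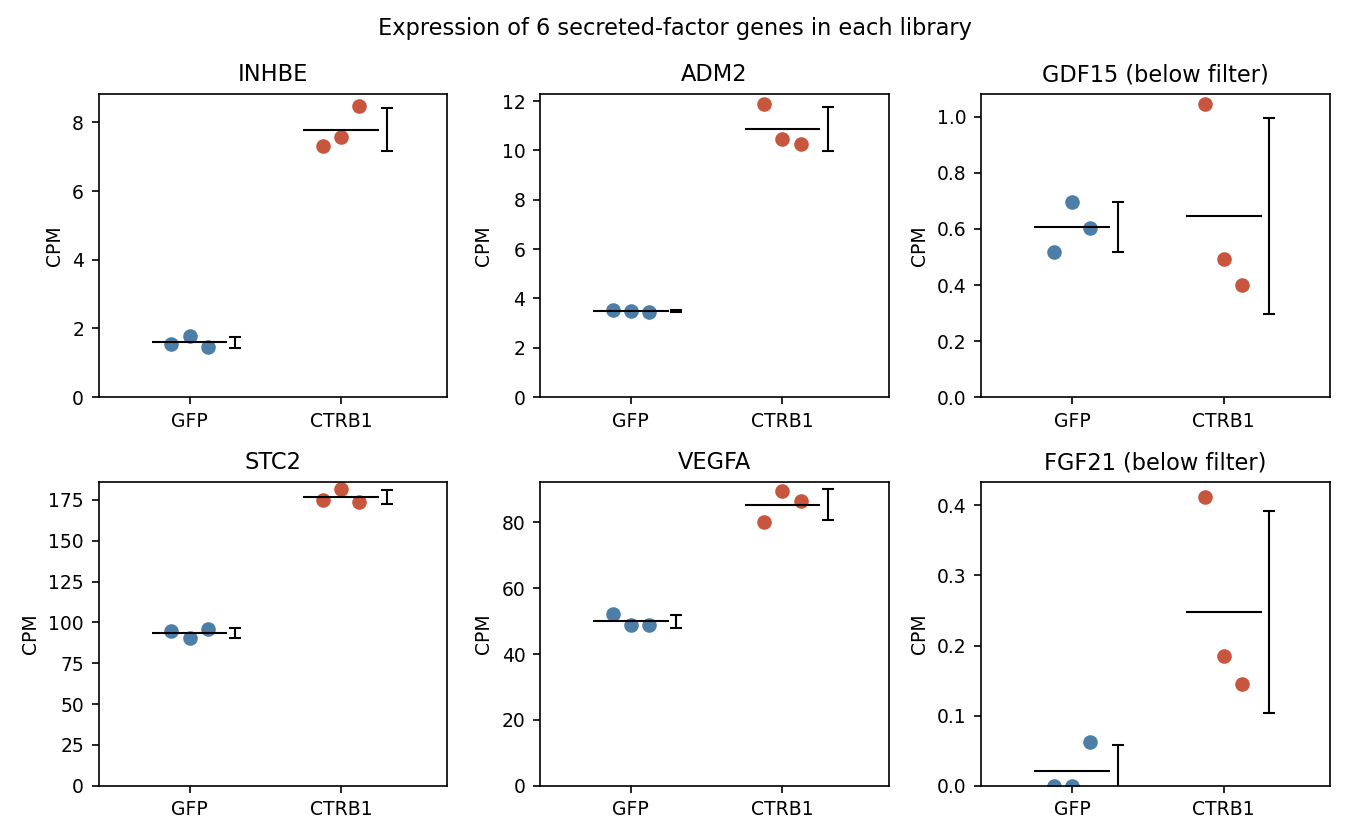
Depth-scaled counts (CPM) of the 6 genes in each library, with 1 panel per gene and a separate vertical axis in each that starts at 0. Points are libraries, horizontal lines are group means and bars are ± SD (n = 3), cut at 0 for FGF21 in GFP cells; the groups separate for every gene except GDF15, where CTRB1 replicate 1 lies above and the other 2 CTRB1 libraries lie below all GFP libraries.

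INHBE encodes the beta E subunit of the inhibin and activin family, whose dimer is activin E, a product mainly of liver cells. The table, which names no genome build, places it on chromosome 12 from 57846106 to 57853063 (ENSG00000139269). Its level was 1.55, 1.78 and 1.47 CPM in GFP cells and 7.32, 7.56 and 8.49 CPM in CTRB1 cells. Every CTRB1 library stood at least 4.12-fold above the highest GFP library. These values came from 81, 115 and 233 counts in GFP cells and 231, 245 and 233 in CTRB1 cells. The log2 change, CTRB1 cells minus GFP cells in edgeR, was 2.29 ± 0.128 (SE), which is 4.89-fold and the fifth highest of the genes tested, CTRB1 included. Its TPM went from 1.29 ± 0.139 to 6.03 ± 0.424 (SD, n = 3 each). The spread between replicates was 9.96% of the mean in GFP cells, where counting error alone gives 9.21%, and 7.93% in CTRB1 cells, where it gives 6.50%.

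ADM2 encodes adrenomedullin 2, also called intermedin, a peptide hormone of the calcitonin family that widens blood vessels. The table places it on chromosome 22, positions 50919985 to 50924869 (ENSG00000128165). It was measured at 3.54, 3.47 and 3.45 CPM in GFP cells and at 11.9, 10.5 and 10.2 CPM in CTRB1 cells. The groups were separated by 2.89-fold between the lowest CTRB1 and the highest GFP library. The SD of the GFP libraries was 1.36% of their mean, less than the 6.23% that counting error gives, from 185, 225 and 548 counts. Its log2 change was 1.64 ± 0.0981 (SE), or 3.11-fold, the ninth highest of the genes tested.

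STC2 encodes stanniocalcin 2, a secreted glycoprotein that inhibits the protease PAPP-A and thereby the release of insulin-like growth factors. It had the highest level of the 6 genes in every library (chromosome 5, positions 172741716 to 172756506 in the table; ENSG00000113739). GFP libraries held 94.8, 90.3 and 95.9 CPM and CTRB1 libraries 174.9, 181.4 and 173.7 CPM. Even the closest libraries of the groups differed by 1.81-fold, against a replicate spread of 3.18% in GFP and 2.35% in CTRB1 cells. The log2 change was 0.91 ± 0.0297 (SE), 1.89-fold, with the smallest SE of the 6. Its length-normalised level went from 36.1 ± 1.17 to 68.7 ± 0.554 TPM (SD, n = 3 each). That moved STC2 from above 62.2% of the genes tested to above 80.7%.

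VEGFA encodes vascular endothelial growth factor A (chromosome 6, positions 43737921 to 43754224 in the table; ENSG00000112715). The 3 GFP libraries lay at 52.2, 48.7 and 48.9 CPM, and the 3 CTRB1 libraries at 80.2, 89.6 and 86.3 CPM. All CTRB1 libraries were higher, by at least 1.54-fold. The log2 change was 0.78 ± 0.0443 (SE), 1.71-fold, the smallest among the 4 genes above the filter. In TPM the libraries held 30.5, 29.2 and 28.1 against 45.2, 45.2 and 46.2, with means above 55.8% and 69.8% of the genes tested. In the GENCODE v29 annotation an antisense gene, AL136131.3, overlaps VEGFA. No source says whether strand was used in counting, so reads of that pair may not be separated.

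GDF15 encodes growth differentiation factor 15, a distant member of the TGF-beta family (chromosome 19, positions 18485541 to 18499986 in the table; ENSG00000130513). Its counts were 27, 45 and 96 in GFP cells and 33, 16 and 11 in CTRB1 cells. Scaled for depth these were 0.517, 0.695 and 0.605 CPM against 1.05, 0.494 and 0.401 CPM. The groups overlapped, with CTRB1 replicate 1 above and the other 2 CTRB1 libraries below every GFP library. Pooled counts per group gave a ratio of 1.08, with an exact conditional 95% counting interval of 0.791 to 1.46. The edgeR log2 change without a filter on low values was 0.09 ± 0.358 (SE), and it was -0.44 without CTRB1 replicate 1. Replicates of CTRB1 cells spread by 53.9% of their mean, where counting error gives 22.6%. A miRNA gene, MIR3189, lies within GDF15 in the GENCODE v29 annotation.

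FGF21 encodes fibroblast growth factor 21 (chromosome 19, positions 49258816 to 49261587 in the table; ENSG00000105550). Its counts were 0, 0 and 10 in GFP cells and 13, 6 and 4 in CTRB1 cells. The 10 counts came from the deepest library and equal 0.0630 CPM, while 0 counts in the other 2 GFP libraries allow up to 0.0571 and 0.0463 CPM (3 counts, counting error only). CTRB1 libraries held 0.412, 0.185 and 0.146 CPM, all above the GFP libraries. The pooled ratio was 6.96, with an exact conditional 95% counting interval of 3.18 to 16.4. That interval leaves out the spread between replicates. This spread was 173% of the mean in GFP cells, where counting error gives 80.4%, and 58.0% in CTRB1 cells, where it gives 36.5%. In the edgeR fit without a filter the log2 change of FGF21 was 2.98 ± 1.03 (SE), so its size is loosely set. Neither GDF15 nor FGF21 was called in that fit, in which 23.7% of 17975 genes were called and 10.5% were called higher. The authors' deposited table marks FGF21 as up with a log2 change of 3.23 and leaves its adjusted p-value blank, and gives GDF15 a log2 change of 0.10 without a mark.

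**Figure D2:**
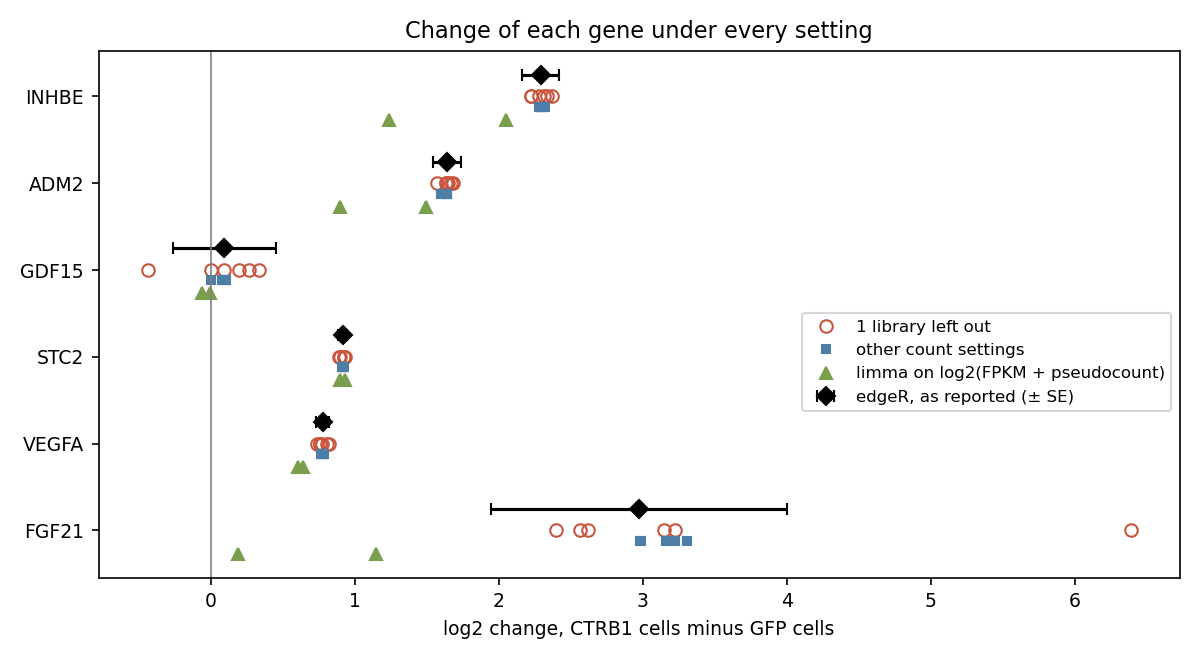
Log2 change of each gene, CTRB1 cells minus GFP cells, as reported (diamonds, ± SE) and under the alternative settings (open circles with 1 library left out, squares for other settings on counts, triangles for limma on log2(FPKM + pseudocount)). INHBE, ADM2, STC2 and VEGFA stay above 0 in every setting run, GDF15 lies on both sides of 0, and the FGF21 point at 6.39 has 0 counts in both remaining GFP libraries and is no bound.

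On the length-normalised scale, STC2 and VEGFA made up most of the RNA of the 6 genes. Their summed level was 68.1 to 70.7 TPM in GFP libraries and 125.6 to 126.9 TPM in CTRB1 libraries. STC2 and VEGFA took 93.9 to 94.9% of that sum in GFP libraries and 89.5 to 91.0% in CTRB1 libraries. INHBE, ADM2, GDF15 and FGF21 together went from 3.61 to 4.14 TPM in GFP libraries to 11.4 to 13.3 TPM in CTRB1 libraries. The order of mean TPM in GFP cells was STC2, VEGFA, ADM2, INHBE, GDF15 and FGF21. In CTRB1 cells INHBE stood above ADM2, with 5.78, 5.78 and 6.52 TPM against 5.25, 4.53 and 4.45 TPM and no overlap. Neighbours in the order of their group did not overlap, but some lay close. INHBE was at 1.18 to 1.45 TPM and GDF15 at 0.813 to 1.14 TPM in GFP cells, and GDF15 at 0.603 to 1.68 TPM and FGF21 at 0.232 to 0.584 TPM in CTRB1 cells.

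The order of the genes was the same in all 3 CTRB1 libraries, but the library with the highest level differed from gene to gene. On the CPM scale, ADM2, GDF15 and FGF21 were highest in CTRB1 replicate 1, whereas VEGFA was lowest there. INHBE was highest in CTRB1 replicate 3, and STC2 in CTRB1 replicate 2.

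The sequence before the start site of 4 of the 6 members was found in the RefSeq promoter table (GRCh38.p14), and it is shown because ATF4 acts through a short element, TGATGNAA, called the C/EBP-ATF response element. Each line holds the 250 bases before the start, 5′ to 3′ on the gene's strand, with capitals for TGATGNAA in the FGF21 line and for GCGTG, a core of the hypoxia response element, in the ADM2 and STC2 lines, on either strand.
FGF21, chr19:48755274-48755523, plus strand: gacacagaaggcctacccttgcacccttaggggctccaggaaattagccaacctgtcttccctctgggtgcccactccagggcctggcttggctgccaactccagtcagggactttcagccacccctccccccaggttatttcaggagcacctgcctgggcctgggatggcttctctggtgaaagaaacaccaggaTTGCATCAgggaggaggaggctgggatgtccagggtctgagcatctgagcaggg
ADM2, chr22:50481293-50481542, plus strand: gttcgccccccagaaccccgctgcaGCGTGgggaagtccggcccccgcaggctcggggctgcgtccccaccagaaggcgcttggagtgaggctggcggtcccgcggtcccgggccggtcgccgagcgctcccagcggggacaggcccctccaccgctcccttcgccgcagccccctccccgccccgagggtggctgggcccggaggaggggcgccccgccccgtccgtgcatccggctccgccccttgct
STC2, chr5:173328415-173328664, minus strand: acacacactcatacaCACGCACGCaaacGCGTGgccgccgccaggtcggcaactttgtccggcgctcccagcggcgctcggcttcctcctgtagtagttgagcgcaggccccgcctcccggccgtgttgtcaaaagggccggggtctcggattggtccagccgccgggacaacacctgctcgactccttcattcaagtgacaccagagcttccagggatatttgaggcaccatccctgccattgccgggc
GDF15, chr19:18385908-18386157, plus strand: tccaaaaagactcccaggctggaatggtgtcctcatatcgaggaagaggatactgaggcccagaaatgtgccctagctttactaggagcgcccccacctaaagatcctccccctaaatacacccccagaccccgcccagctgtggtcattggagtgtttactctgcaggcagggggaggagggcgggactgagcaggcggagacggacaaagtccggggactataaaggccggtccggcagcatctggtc

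FGF21 was the member with a match to TGATGNAA in this window, on the minus strand at 54 to 47 bases before the start. Bases after the start were found in a GENCODE v29 transcript of the gene for STC2 and GDF15, but not for FGF21 or ADM2. Positions for FGF21 and ADM2 thus rest on the RefSeq start alone. Among 15843 promoters of protein-coding genes, 2.21% held a match in the same window on either strand. The same 8 letters stand before CHAC1, which encodes a glutathione-degrading enzyme, and a variant of them before ASNS, the asparagine synthetase gene, both textbook ATF4 targets. The promoter table holds 2 windows for ASNS, and the other has no match. The CHAC1 start also lacked such a GENCODE match, while the ASNS starts had it. DDIT4, which was searched in the same way, had no match to TGATGNAA. Of 32 promoters of intracellular genes activated by ATF4 and CHOP, 4 held a match, so most had none in this window. The matches before CHAC1 and ASNS are shown for comparison, in capitals.
CHAC1, chr15:40953246-40953285, plus strand: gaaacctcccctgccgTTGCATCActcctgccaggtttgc
ASNS, chr7:97872453-97872492, minus strand: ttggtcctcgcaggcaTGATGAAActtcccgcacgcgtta

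GCGTG matched in ADM2 and STC2, and 39.2% of all promoters held it, while ACGTG, the other core searched, matched in none of the 4 members and in 20.8% of promoters. The ER stress element matched in none of the 4 and in 0.12% of promoters. STC2 holds 3 GCGTG matches, of which 2 overlap by a base. Matches describe letters in a window and not binding, and no match says only that these letters are not in this window.

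The nearest genes of INHBE, ADM2, STC2, VEGFA and FGF21 differed less between the groups than these members did, while GDF15 and both its neighbours had log2 changes under 0.1. Members were chosen with their difference known and neighbours were not, so this comparison is a description and cannot show that a change is local. Distances ran from 855 bases for GLI1 to 326970 bases for MRPL14. Of the 12 nearest genes that passed the filter, 1 on each side of each member, 3 rose and 2 fell, with log2 changes from -0.24 to 0.49, where 18.6% of all genes rose and 18.9% fell. INHBE was the member with a rise on both sides. R3HDM2, 21318 bases away, rose by 0.49 ± 0.0388 in log2 units (SE; edgeR adjusted p = 7.06e-06). GLI1, a transcription factor gene of Hedgehog signalling that starts 855 bases past the end of INHBE, rose by 0.43 ± 0.119 (SE; edgeR adjusted p = 0.0157). The call of GLI1 was lost without GFP replicate 1 (adjusted p = 0.0609) and without GFP replicate 2 (adjusted p = 0.0603). INHBC, the paralogue that lies between R3HDM2 and INHBE, stayed below the filter at 0.317 ± 0.0618 and 0.539 ± 0.320 CPM (SD, n = 3 each). Beside STC2, NKX2-5 fell by 0.21 in log2 units (edgeR adjusted p = 0.011), and beside VEGFA, MRPS18A fell by 0.24 (edgeR adjusted p = 0.00254). For FGF21, BCAT2, the mitochondrial branched-chain aminotransferase gene, rose by 0.11 (edgeR adjusted p = 0.0372), a call lost when any 1 library other than CTRB1 replicate 3 was left out. Neither neighbour of ADM2 or of GDF15 passed.

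**Figure D3:**
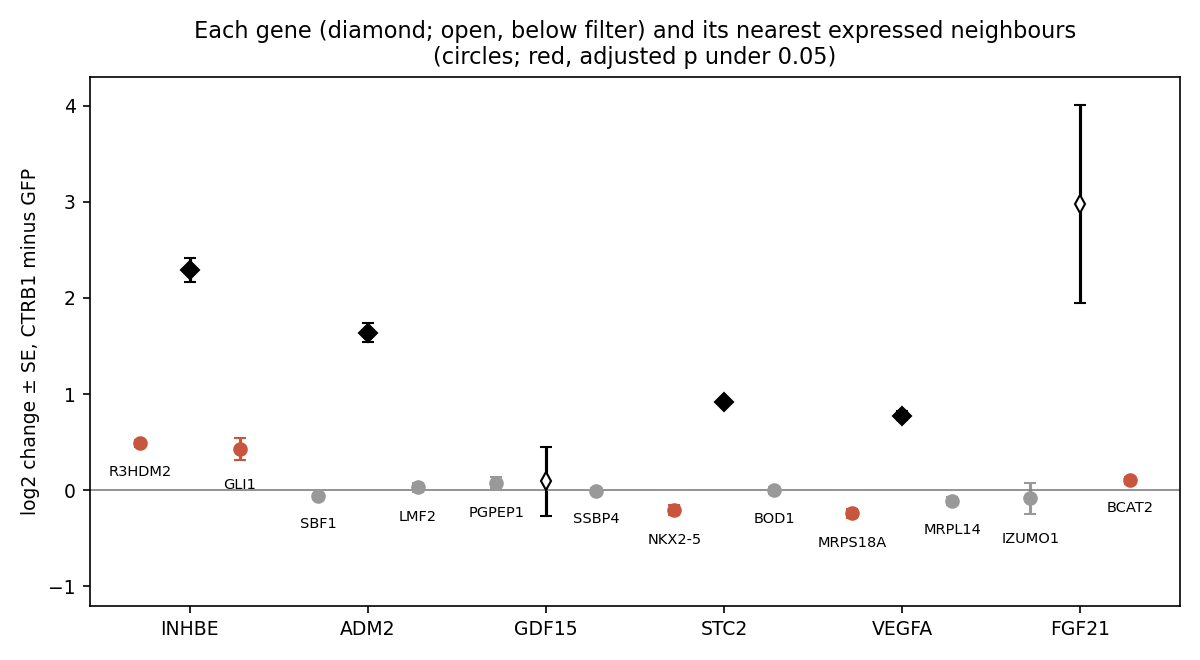
Log2 change ± SE of each gene (diamonds, open where below the filter) and of the nearest gene above the filter on its lower-coordinate (left circle) and higher-coordinate (right circle) side, red where the edgeR adjusted p is under 0.05. INHBE lies between R3HDM2 at 0.49 and GLI1 at 0.43, and all other neighbours lie between -0.24 and 0.11.

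Closest relatives of the members did not pass the test. INHBB, the beta B subunit gene of activin B, was at 6.04 ± 0.532 CPM in GFP cells and 6.56 ± 0.498 CPM in CTRB1 cells (SD, n = 3 each; log2 change 0.12; edgeR adjusted p = 0.393). ADM, which encodes adrenomedullin and is a HIF target, was at 7.69 ± 0.356 and 8.23 ± 1.12 CPM (log2 change 0.10; edgeR adjusted p = 0.488). VEGFB, VEGFC and PGF, the other VEGF ligands above the filter, differed between the groups by 0.14, 0.42 and 0.05 in log2 units (edgeR adjusted p = 0.145, 0.0748 and 0.678). VEGFB passed without CTRB1 replicate 2 (adjusted p = 0.0402) and VEGFC without CTRB1 replicate 3 (adjusted p = 0.0129). STC1, INHBA and FGF19, paralogues of STC2, INHBE and FGF21, were below the filter, with means of 0.156, 0.541 and 0.786 CPM in GFP cells and 0.172, 0.524 and 1.32 CPM in CTRB1 cells.

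Over the whole list of 65 relatives in the TGF-beta, calcitonin, stanniocalcin, VEGF, PDGF and FGF families, 20 passed the filter, of which 2 rose and 2 fell, or 5 and 2 without CTRB1 replicate 1. Their median log2 change was 0.08, against 0.003 for all genes tested, and 18.6% of all genes were called higher and 18.9% lower. CALCB, which encodes a calcitonin gene-related peptide and belongs to the family of ADM2, rose by 0.47 ± 0.0982 (SE; edgeR adjusted p = 0.00353). BMP7, a bone morphogenetic protein gene, rose by 0.14 (edgeR adjusted p = 0.0178), a call lost without GFP replicate 1 (adjusted p = 0.082) and without GFP replicate 3 (adjusted p = 0.051). TGFB1 and GDF11 fell by 0.22 each in log2 units (edgeR adjusted p = 0.00482 and 0.00318).

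Receptors for the secreted factors were partly present and moved little. GFRAL, the receptor of GDF15, and RAMP3, an accessory protein of the receptor of ADM2, had 0 counts in all 6 libraries, which allows up to 0.0188 to 0.109 CPM per library. CALCRL, the receptor that ADM2 binds, was at 0.293 and 0.252 TPM in GFP and CTRB1 cells. KLB, the co-receptor that FGF21 needs, was at 0.294 and 0.264 TPM, and KDR, the main signalling receptor of VEGFA, at 0.264 and 0.209 TPM. ACVR1C, an activin type I receptor, was at 0.278 and 0.221 TPM. By contrast FGFR1 was at 30.0 and 30.6 TPM, NRP1, a VEGF co-receptor, at 14.8 and 14.5 TPM, RAMP1 at 17.3 and 18.4 TPM, and FLT1 at 6.22 and 6.19 TPM, with no call for any of these 4 (edgeR adjusted p = 0.216, 0.727, 0.508 and 0.823).

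Of 32 receptor genes 21 passed the filter, and 4 rose and 2 fell, with a median log2 change of 0.07. Over all genes tested 18.6% rose and 18.9% fell. The share of rises among receptors was near that of all genes, while the share of falls was lower, and neither was tested. ACVR2B, an activin type II receptor gene, rose by 0.16 ± 0.0305 (SE; edgeR adjusted p = 0.00198) and ACVR1B by 0.17 ± 0.0386 (SE; edgeR adjusted p = 0.00575). FGFR2 rose by 0.26, while FGFR4 and FGFRL1 fell by 0.28 and 0.30 in log2 units (edgeR adjusted p = 0.00217, 0.000286 and 0.000229). None of the 4 rises passed when limma was run on FPKM with a pseudocount of 1, where FGFR2 had an adjusted p of 0.0588. BMPR1B, the remaining rise, was at an edgeR adjusted p of 0.0467 that became 0.159 without GFP replicate 1, 0.117 without GFP replicate 2, 0.15 without CTRB1 replicate 1 and 0.0509 without CTRB1 replicate 3.

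**Figure D4:**
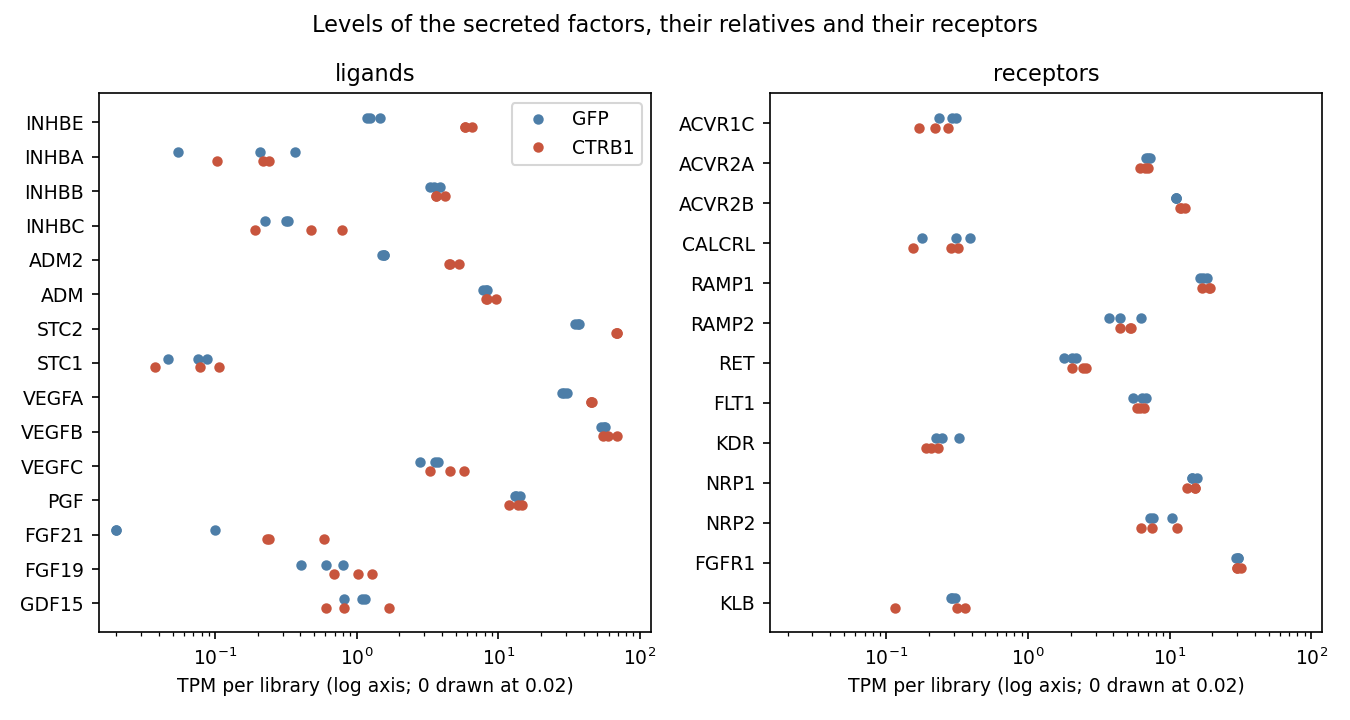
TPM per library, on a log axis, of the 6 secreted factors with their closest relatives (left) and of their receptors (right), with GFP libraries in blue and CTRB1 libraries in red; values of 0 are drawn at 0.02. The groups stand apart for INHBE, ADM2, STC2, VEGFA and, at low levels, FGF21, while GFRAL and RAMP3 had no counts and are not drawn, and CALCRL, KLB, KDR and ACVR1C lie below 0.5 TPM in every library.

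FURIN and PAM, enzymes that process such hormones, were expressed and did not pass. FURIN, which cleaves the precursors of TGF-beta family ligands, was at 55.7 ± 1.41 and 55.9 ± 1.76 CPM (SD, n = 3 each), and PAM, which amidates peptide hormones, at 57.7 and 57.6 CPM (edgeR adjusted p = 0.935 and 0.966). FSTL3, whose product binds and blocks activins, fell by 0.39 ± 0.0868 (SE; edgeR adjusted p = 0.00532), and IGFBP5, an insulin-like growth factor binding protein gene, rose by 0.24 (edgeR adjusted p = 0.00406). PCSK7, a proprotein convertase gene, fell by 0.10 (edgeR adjusted p = 0.0451), a call lost without any 1 library other than CTRB1 replicate 3. Of 29 processing and antagonist genes, 16 passed the filter, and 3 rose and 2 fell, with a median log2 change of 0.001. Over all genes tested 18.6% rose and 18.9% fell. The share of rises in this list was near that of all genes, while the share of falls was lower, and neither was tested. Rises numbered 1 without any 1 GFP library and 2 without any 1 CTRB1 library, and falls 1 without CTRB1 replicate 1 or any 1 GFP library. PAPPA and PAPPA2, the targets of STC2, were below 0.05 TPM in both groups.

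Regulators of stress signalling included called rises and called falls. ATF4 rose from 551 ± 10.5 to 781 ± 39.0 CPM (SD, n = 3 each; log2 change 0.50; edgeR adjusted p = 1.57e-06), and DDIT3 had the same log2 change of 0.50 (edgeR adjusted p = 0.000556). NUPR1, whose small nuclear protein is induced by stress, had the highest log2 change of the list, 2.33, and INHBE had 2.29 (edgeR adjusted p = 4e-07 for NUPR1). CEBPB, a partner of ATF4 on DNA, rose by 0.77 ± 0.0582 (SE; edgeR adjusted p = 5.37e-06). HIF1A, a hypoxia factor that activates VEGFA, fell by 0.18 ± 0.0297 (SE; edgeR adjusted p = 0.000869). Over the settings run, log2 changes were -0.53 to -0.265 for ATF5, -0.34 to -0.13 for EPAS1 and 0.34 to 0.40 for XBP1. All 3 are transcription factor genes. The edgeR call of EPAS1 (adjusted p = 0.0284) was lost without GFP replicate 2, GFP replicate 3 or CTRB1 replicate 2, and in limma. None of the 4 eIF2alpha kinase genes passed, with log2 changes from -0.01 to 0.01. Over the 30 regulators 11 rose and 6 fell, with a median log2 change of 0.02, where 18.6% of all genes rose and 18.9% fell. Falls numbered 4 without GFP replicate 2 or 3.

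Intracellular genes activated by ATF4 and CHOP moved like INHBE, ADM2, STC2 and VEGFA in direction. Of 41 such genes, all above the filter, 37 rose and 1 fell, where 18.6% of all genes rose and 18.9% fell. Their median log2 change was 0.59 against 0.003 over all genes tested. The list was written with earlier results of these data known and is no independent evidence of a direction. CHAC1 had the highest log2 change in the list, 1.65, close to the 1.64 of ADM2. SLC7A11, a cystine transporter gene, rose by 1.40, ASNS by 1.25 and ALDH1L2, of mitochondrial folate metabolism, by 1.05 (edgeR adjusted p = 1.47e-10, 2.29e-11 and 6.79e-10). ERO1A, an enzyme gene of protein folding in the endoplasmic reticulum, fell by 0.13 (edgeR adjusted p = 0.00799), a call lost in limma (adjusted p = 0.0677). A search over the log2 CPM profiles of all genes tested, each centred on its mean over the 6 libraries, named the genes most like each member by Euclidean distance. They were NUPR1 at 0.325 and CHAC1 at 0.606 for INHBE, and DDIT4 at 0.15 and CHAC1 at 0.172 for ADM2. For STC2 they were PSAT1, of serine synthesis, at 0.0867 and SESN2 at 0.177, and for VEGFA they were ASS1, of arginine synthesis, at 0.145 and EIF4EBP1, an inhibitor of translation initiation, at 0.149. Median distances over all genes were 2.44, 1.86, 1.13 and 0.963 for INHBE, ADM2, STC2 and VEGFA. These medians lie near the members' own distances from a flat profile, 2.44, 1.85, 1.12 and 0.95. The members were chosen on this contrast, so a short distance mostly marks a log2 change of similar size. Shared regulation was not tested.

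Other lists held targets of HIF, which acts on VEGFA, ER folding genes, and targets of p53, which acts on GDF15, beside the 18.6% of all genes that rose and 18.9% that fell. Of 27 HIF targets, 5 rose and 7 fell (median log2 change 0.04). Log2 changes in this list ran from -0.24 to 0.41. Rises numbered 2 without GFP replicate 2 or 3, and 3 without GFP replicate 1, CTRB1 replicate 1 or CTRB1 replicate 3. Among falls, the glycolytic genes LDHA and PGK1 fell by 0.24 and 0.19 in log2 units (edgeR adjusted p = 6.96e-06 and 0.000273). Of 24 ER folding genes, 4 rose and 7 fell (median 0.001). HERPUD1, a gene of ER-associated degradation, rose by 0.34 and CALR, a chaperone gene, fell by 0.22 (edgeR adjusted p = 3.54e-06 and 2.84e-05). Of 21 p53 targets, a class that includes GDF15 itself, 11 rose and 1 fell (median 0.19). This list too was written with earlier results of these data known, and whether p53 caused the rises was not tested. BBC3 rose by 0.62 and DDB2 by 0.49 (edgeR adjusted p = 0.00015 and 0.00104), and limma called 5 rises in the list.

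**Figure D5:**
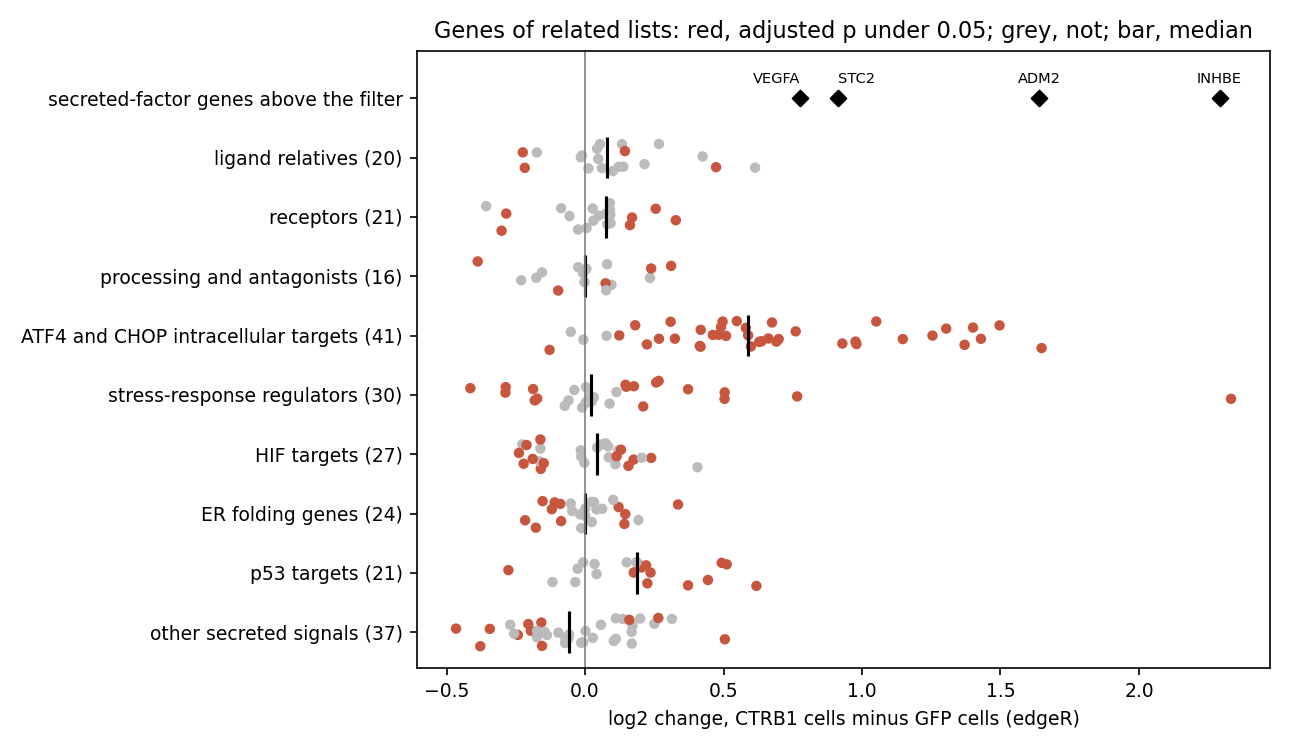
Log2 change of the genes of 9 lists (dots, red where the edgeR adjusted p is under 0.05, with black bars for the median and the number tested in brackets) and of the 4 secreted-factor genes above the filter (diamonds). The ATF4 and CHOP list lies to the right, with a median of 0.59, and the medians of the other lists lie between -0.06 and 0.19.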

How the data were processed

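RNA-seq of 6 libraries, 3 per group, was analysed from 1 deposited table. Its read counts per gene are the authors' whole, unnormalised counts, per the file headers. FPKM and TPM are the authors' deposited values normalised for length and depth, per the file headers. The table also holds the authors' log2 fold changes between the groups and their p-values, and no header names the tool. Of tools, the notes of the submitters list HTSeq 0.6.1, HISAT2 2.2.1 and cutadapt 1.9.1, with no role for any, and a mouse build, GRCm38.p5, although all identifiers are human Ensembl ones.

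The members and gene lists were chosen with earlier results of these data known. edgeR 4.0.16 (R 4.3.3) was run on the counts of the 11961 genes with FPKM of at least 1 in at least 3 libraries, with TMM factors of 0.9964 to 1.0036, the quasi-likelihood F test, no covariates, and Benjamini-Hochberg adjustment over all genes tested. SE was computed as the absolute log2 change over the root of F. CPM used TMM-adjusted totals of these genes, and members below the filter came from a fit of all 17975 genes with a count. Tests were checked on simulated counts with the same spread setting for every gene, so the check does not cover genes of wide spread such as GDF15. Total counts were 27514767 to 159616285 per library. Intervals, and floors of 3 counts, hold for counting error alone. Symbols came from the table's HGNC column, or its gene name column where blank, and for a symbol on several rows the row with most counts was used. Alternatives were DESeq2 1.42.0, other scalings and filters, thinned counts, a replicate block, leaving out each library, and limma 3.58.1 on log2(FPKM + pseudocount). Genes named beside the members were list members with the smallest adjusted p, direct paralogues and receptors, neighbours, and the 2 genes nearest in profile. ACVR1B, BMPR1B, ATF5, HIF1A, EPAS1, FURIN, PAM, PAPPA, PAPPA2 and ERO1A were named after their values were seen. Markers NEFL and PECAM1 were not used here, and 1 further marker of the cell line is not reported here.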

Additional observations from a re-analysis of the deposited data

How the results depend on the processing

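INHBE, ADM2, STC2 and VEGFA kept their direction and their side of the threshold in every alternative run. These genes were chosen on this contrast and every run drew on the same 6 libraries, so nothing is read from this. Over libraries left out, their log2 changes ranged from 2.22 to 2.37 for INHBE, 1.57 to 1.68 for ADM2, 0.89 to 0.93 for STC2 and 0.74 to 0.82 for VEGFA. Limma on log2(FPKM + 1) gave 1.24 for INHBE and 0.89 for ADM2, and a pseudocount lowers the change of weak genes. For VEGFA, which is not weak, limma gave 0.61 with a pseudocount of 1 and 0.64 with 0.1. Both lie below its values on counts, and the reason was not tested. Thinning every library to the depth of the shallowest gave 2.32, 1.60, 0.92 and 0.77. INHBE and ADM2 have no value with a mean FPKM of at least 5, which they do not reach. GDF15 ranged from -0.44 to 0.33 with 1 library left out. FGF21 ranged from 2.40 to 6.39 and passed without GFP replicate 3, when both remaining GFP libraries hold 0 counts and the fitted value is no bound; it also passed in limma on log2(FPKM + 0.1), at 1.15.

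Replicate numbers did not pair the libraries, with correlations of same-numbered deviations of -0.084, -0.0144 and -0.09. With the number as a replicate block, 2119 genes were higher and 2201 lower, against 2221 and 2258 without it, and the log2 changes of INHBE, ADM2, STC2 and VEGFA were 2.29, 1.63, 0.92 and 0.78. Over libraries left out the counts ranged from 1605 to 2134 higher and 1728 to 2256 lower. Limma with either pseudocount called 1250 genes higher, and 39.2% of its calls with a pseudocount of 1 were higher, against 49.6% in edgeR.

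Small lists moved most, and the cause was not tested. With limma at either pseudocount, rises numbered 0 among receptors, 1 among processing and antagonist genes, 2 among HIF targets, 2 among ER folding genes and 5 among p53 targets, and falls numbered 0 among ATF4 and CHOP targets; with a pseudocount of 0.1, 1 other secreted signal rose. Relatives of the ligands had 1 rise in thinned counts, 4 falls without a filter and 2 to 5 rises with 1 library left out. Processing and antagonist genes had 1 rise without a filter and 1 with a mean FPKM of at least 5. Their falls numbered 1 with DESeq2, library totals, thinned counts, the replicate block and limma, and 0 with a mean FPKM of at least 5. With 1 library left out that list had 1 to 2 rises and 1 to 3 falls, HIF targets 2 to 6 rises, and p53 targets 0 to 2 falls. HIF targets had 3 rises without a filter. Depth limits FGF21, whose counts reach at most 13 in a library. For GDF15 the spread between CTRB1 libraries, 53.9%, exceeds the 22.6% that counting error gives.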

Other observations

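Of 119 hormones, growth factors, chemokines and guidance cues on a separate list, 37 passed the filter, and 3 rose and 8 fell, with a median log2 change of -0.06. Over all genes tested 18.6% rose and 18.9% fell. The share of the list that fell was near that of all genes, while the share that rose was lower, and neither was tested. CCL5, a chemokine gene, rose from 26.7 ± 0.584 to 37.8 ± 0.806 CPM (SD, n = 3 each; log2 change 0.50; edgeR adjusted p = 1.54e-05). SLIT2, an axon guidance gene, fell from 109 ± 1.68 to 86.2 ± 0.765 CPM (edgeR adjusted p = 4.85e-06). GAL, which encodes the neuropeptide galanin, fell by 0.38 in log2 units (edgeR adjusted p = 6.25e-05), and SEMA3C, another guidance gene, fell by 0.47 (edgeR adjusted p = 0.000236).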
